A study of Mus musculus with 10 samples.

Results

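The lysosomal genes described here are 36 protein-coding genes of lysosomal membrane proteins, hydrolases, lipid handling proteins, the proton pump and the factors that regulate them, taken from a table of 56748 mouse genes by their names. All 36 were found once in the table and all 36 passed the filter on low values, a mean of at least 0.5 FPKM over the libraries, which left 13607 genes to test. They were measured in colon organoids, three-dimensional cultures of intestinal epithelium, which received WY-14643 (100 µM, 5 libraries, replicates 6 to 10) or the vehicle alone (5 libraries, replicates 1 to 5) for 2 days, starting 3 days after passage. WY-14643 activates PPARα, a nuclear receptor that senses fatty acids. The comparison asks what this agonist does to gene expression in colon epithelium. Neither group is labelled with a genetic change or a PPARα antagonist, so a difference is one between agonist and vehicle and is not assigned to the receptor. The labels name no mouse strain, animal or organoid line, so a p-value here covers library-to-library spread only, part of which may be technical. In the matched fit described below, it covers only the spread left after differences between matched orders are taken out. In such bulk libraries, fewer cells of a type and less RNA per cell cannot be told apart.

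Lysosomes degrade proteins, glycans, nucleic acids and lipids that arrive by endocytosis and autophagy, using hydrolases that work at acid pH. The acid is supplied by the V-ATPase, a multi-subunit proton pump, and the lumen is lined by heavily glycosylated membrane proteins of which LAMP1 and LAMP2 are the most abundant. TFEB and TFE3 are transcription factors that bind a short palindrome with the core CACGTG in the promoters of many lysosomal genes and turn them on together. Scarb2 encodes LIMP-2, a lysosomal membrane protein of the CD36 family of scavenger receptors.

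The libraries held 16136440 to 22209003 gene-assigned reads with WY-14643 and 15618244 to 29271304 with vehicle. Markers of epithelium defined them: the summed level of 8 epithelial genes, Krt8, Krt18, Krt19 and Epcam among them, was 3795 to 7322 FPKM with WY-14643 and 4065 to 6889 FPKM with vehicle. Libraries of the 2 groups deviated from their group means together in numerical order, so that WY-14643 replicate 6 went with vehicle replicate 1, 7 with 2, 8 with 3, 9 with 4 and 10 with 5 (correlation across genes 0.423 to 0.782, against at most 0.0602 for other combinations). The labels state no such match. Limma was therefore fitted without a block and with the matched order as a block, the latter called the matched fit here. For Scarb2 and Lipa, adjusted p-values from both fits are given. For the other members, SEs, intervals and adjusted p-values are from the matched fit unless another is named. SEs of all members are smaller there than without the block. Differences are on the log2(FPKM + 1) scale. Adjusted p-values are over all 13607 genes tested, with a threshold of 0.05.

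Scarb2 was the 1 lysosomal gene that passed the matched fit, and it was higher with WY-14643. It was at 25.5, 40.4, 31.0, 32.0 and 14.4 FPKM in WY-14643 replicates 6 to 10, against 14.5, 19.8, 17.5, 15.4 and 9.43 FPKM in vehicle replicates 1 to 5. WY-14643 replicates 6 to 9 lay above every vehicle library, whereas WY-14643 replicate 10 lay within the vehicle range, beside the lowest vehicle library of all, replicate 5. The means were 28.6 ± 9.58 FPKM with WY-14643 and 15.3 ± 3.88 FPKM with vehicle (SD, n = 5 each), a ratio of 1.87. Each value rests on at least 2097 reads with WY-14643 and 1271 reads with vehicle.

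The log2 fold change of Scarb2 was 0.82, with an SE of 0.26 without a block and 0.07 in the matched fit. It rose in the matched fit (limma, adjusted p = 0.0142, higher in 5 of 5 matched libraries, 95% interval 0.66 to 0.99), where 39 genes or 0.287% of those tested were called higher and 4 or 0.0294% lower. Without the block its unadjusted p was 0.0098 and its adjusted p 1, in a fit that called 0% of the genes in either direction. An exact two-sided permutation test of the 10 Scarb2 levels, without the match, gave p = 0.0397, and within matched libraries p = 0.0625, the smallest that 5 of them can give. The matched call was lost without WY-14643 replicate 7 and vehicle replicate 2 (adjusted p = 0.0889), without replicates 8 and 3 (adjusted p = 0.0895) and with no filter on low values (adjusted p = 0.119), and the log2 fold change was then between 0.78 and 0.83.

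**Figure D1:**
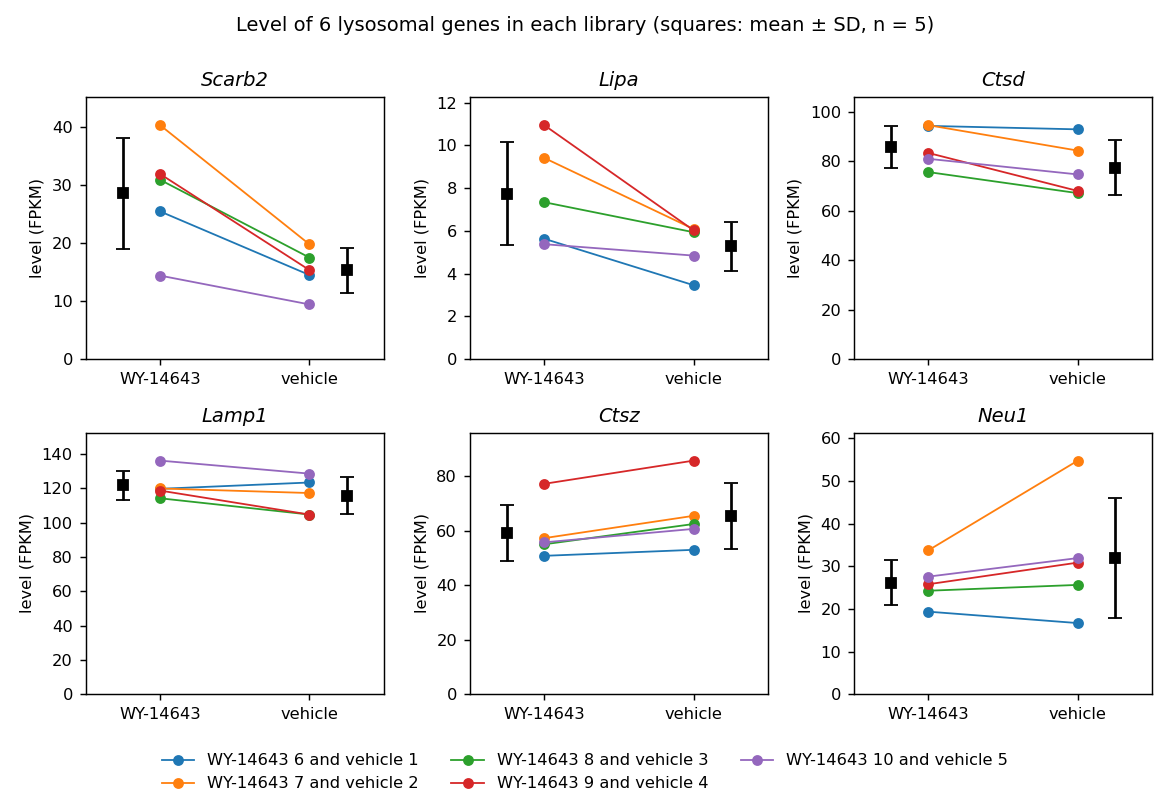
Level in FPKM of 6 lysosomal genes in the 5 WY-14643 and the 5 vehicle libraries, with lines joining libraries matched by numerical order and squares for mean ± SD (n = 5 each). Every Scarb2 line falls towards vehicle (means 28.6 FPKM with WY-14643 and 15.3 FPKM with vehicle). Every Ctsd line falls as well, by 0.02 to 0.29 on the log2 scale. The groups overlap in all 6 genes, Scarb2 included.

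Scarb2 lies on chromosome 5 from 92589173 to 92654692 on the minus strand in build mm39 as the table gives it (ENSMUSG00000029426). The promoter window of Scarb2, from 250 bases before to 50 bases after its RefSeq start, is shown beside those of 3 other members because they differ in the palindrome that TFEB and TFE3 are known to bind. The windows come from RefSeq on build GRCm38.p6, another build than that of the table. They lie at chr5:92505608-92505907 (minus strand, Scarb2), chr19:34527425-34527724 (minus strand, Lipa), chr7:142387778-142388077 (minus strand, Ctsd) and chr8:13158911-13159210 (plus strand, Lamp1). Each is written along the strand of its gene, with CACGTG and the related CATGTG or its complement CACATG in capitals.
Scarb2: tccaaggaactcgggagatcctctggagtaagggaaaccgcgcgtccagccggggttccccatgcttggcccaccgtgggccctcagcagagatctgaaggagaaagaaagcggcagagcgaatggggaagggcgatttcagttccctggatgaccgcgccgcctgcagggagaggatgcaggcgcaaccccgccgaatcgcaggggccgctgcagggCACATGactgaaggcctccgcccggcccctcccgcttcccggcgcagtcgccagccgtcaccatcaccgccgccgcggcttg
Lipa: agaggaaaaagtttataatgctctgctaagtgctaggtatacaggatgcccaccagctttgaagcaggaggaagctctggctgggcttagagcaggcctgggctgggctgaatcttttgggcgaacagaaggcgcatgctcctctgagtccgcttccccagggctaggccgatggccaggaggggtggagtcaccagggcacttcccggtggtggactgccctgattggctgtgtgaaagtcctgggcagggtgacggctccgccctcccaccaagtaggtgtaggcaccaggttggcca
Ctsd: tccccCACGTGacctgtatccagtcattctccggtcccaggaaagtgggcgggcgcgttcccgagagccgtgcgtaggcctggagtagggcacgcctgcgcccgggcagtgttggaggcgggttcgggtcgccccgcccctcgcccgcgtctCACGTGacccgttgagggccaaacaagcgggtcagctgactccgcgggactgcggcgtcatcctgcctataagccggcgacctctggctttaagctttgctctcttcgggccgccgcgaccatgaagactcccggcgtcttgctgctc
Lamp1: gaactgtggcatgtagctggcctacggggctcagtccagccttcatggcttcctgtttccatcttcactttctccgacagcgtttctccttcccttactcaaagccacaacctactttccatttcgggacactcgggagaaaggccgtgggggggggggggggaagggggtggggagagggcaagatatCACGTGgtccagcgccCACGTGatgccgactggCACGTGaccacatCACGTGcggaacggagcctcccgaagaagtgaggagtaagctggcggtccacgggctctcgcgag

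The window of Lamp1 held 4 copies of CACGTG within 61 bases before the start and that of Ctsd 2, whereas the windows of Scarb2 and Lipa held none. Scarb2 had 1 CACATG that begins 32 bases before the start. Among the 31 members with a window in the RefSeq table, CACGTG was in 13, or 41.9%, against 8.09% of the windows of all 27025 genes. CATGTG or CACATG was in 8 of the 31, or 25.8%, against 15.9% of all genes. The 13 were Lamp1, Ctsa, Ctsd, Ctsl, Lgmn, Glb1, Gaa, Gla, Naglu, Sgsh, Mcoln1, Atp6v0d1 and Atp6v1a. AGGTCA or TGACCT, the core element of nuclear receptor sites, was in 7 of the 31 members (22.6%, against 18.1% of all genes) and in neither the Scarb2 nor the Lipa window, and the direct repeat DR1, AGGTCA written again after 1 base of any kind and searched on both strands, was in 0 members and 0.0481% of all genes. A gene with several windows counted when any of them matched. These are matches of letters, and a missing match says only that the letters are not in these 300 bases. Asah1, Atp6v1h, Ctsb, Ctsh and Npc1 were not matched in the table.

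The other lysosomal membrane proteins did not pass in either fit. Lamp1, a major glycoprotein of the lysosomal membrane, was at 119.8, 120.0, 114, 119 and 136 FPKM in WY-14643 replicates 6 to 10, against 123, 117, 104.8, 104.8 and 129 FPKM in vehicle replicates 1 to 5. Vehicle replicates 3 and 4 lay below every WY-14643 library and WY-14643 replicate 10 above every vehicle library, with the others overlapping, and its log2 fold change was 0.07 (limma matched fit, 95% interval -0.03 to 0.18, adjusted p = 0.625). Lamp2, its relative that also serves chaperone-mediated autophagy, was at 21.4, 25.8, 17.8, 17.3 and 25.3 FPKM in WY-14643 replicates 6 to 10 and at 21.6, 27.2, 17.4, 17.1 and 22.2 FPKM in vehicle replicates 1 to 5. Matched libraries of Lamp2 differed by at most 0.18 on the log2 scale, where WY-14643 replicate 10 was above vehicle replicate 5. Its log2 fold change was 0.03 (limma matched fit, 95% interval -0.08 to 0.14, adjusted p = 0.876). Cd63, a tetraspanin of late endosomes and lysosomes, averaged 34.04 ± 2.03 FPKM with WY-14643 and 33.7 ± 5.07 FPKM with vehicle (SD, n = 5 each). Per length, the mean level of Scarb2 was above that of Lamp2 with WY-14643 (28.6 and 21.5 FPKM) and below it with vehicle (15.3 and 21.1 FPKM). This order of the means did not hold in WY-14643 replicate 10, where Scarb2 was below Lamp2 (14.4 and 25.3 FPKM), and in vehicle replicate 3, where it was slightly above (17.52 and 17.39 FPKM).

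Set against the other 35 members together, Scarb2 changed place among them. The mean log2 level of the 35 was 4.21 ± 0.08 with WY-14643 and 4.20 ± 0.14 with vehicle (SD, n = 5 each), a difference of 0.01. Scarb2 minus that mean was 0.62, 1.06, 0.81, 0.78 and -0.23 in WY-14643 replicates 6 to 10, against -0.04, 0.003, 0.03, -0.20 and -0.82 in vehicle replicates 1 to 5. By level Scarb2 ranked 9 to 21 among the 36 members in WY-14643 libraries and 18 to 26 in vehicle libraries. In each of the 5 matched differences Scarb2 had the largest value of the 36, at 0.77, 0.99, 0.79, 1.0104 and 0.56. The largest other member was Lipa in the first 4, at 0.57, 0.56, 0.27 and 0.77, and Lamp2 in the fifth, at 0.18. These values describe genes chosen with earlier results known, and no test was made over the list.

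**Figure D2:**
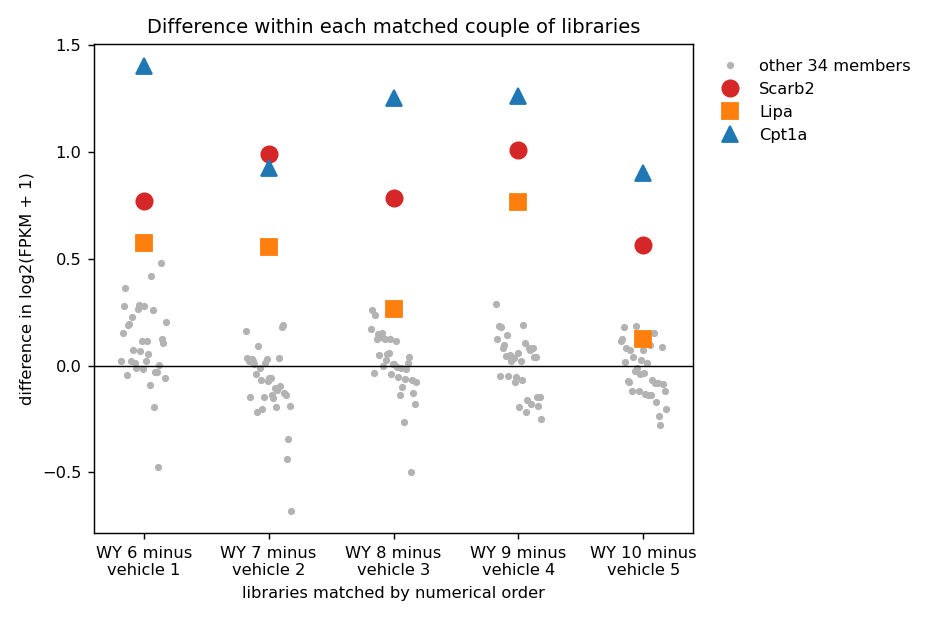
Difference in log2(FPKM + 1) between each WY-14643 library and its matched vehicle library, for Scarb2, Lipa, the other 34 lysosomal genes (grey) and the fatty acid oxidation gene Cpt1a. Scarb2 lies above all other lysosomal genes in each of the 5, from 0.56 to 1.0104, and the grey points scatter around 0.

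Cpt1a, a carnitine palmitoyltransferase and well-known PPARα target, shows the size of the response in the same libraries. Its matched differences were 1.40, 0.92, 1.26, 1.26 and 0.90 in the same order, from 24.6, 29.5, 30.6, 26.0 and 22.1 FPKM in WY-14643 replicates 6 to 10, against 8.68, 15.1, 12.3, 10.3 and 11.4 FPKM in vehicle replicates 1 to 5. The levels of Cpt1a did not overlap between groups, unlike those of Scarb2. Scarb1, the scavenger receptor for HDL in the same family as Scarb2, was at 3.95 ± 0.56 and 3.90 ± 0.34 FPKM in WY-14643 and vehicle (SD, n = 5 each), and Cd36 was below the filter, listed at 0 FPKM in all libraries but vehicle replicate 5 (0.0130 FPKM).

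Among the 7 genes of lysosomal lipid handling, Lipa stood next to Scarb2. Lipa encodes lysosomal acid lipase, which hydrolyses cholesteryl esters and triglycerides inside the lysosome. It was at 5.63, 9.41, 7.34, 10.9 and 5.38 FPKM in WY-14643 replicates 6 to 10, against 3.46, 6.08, 5.94, 6.02 and 4.84 FPKM in vehicle replicates 1 to 5. WY-14643 replicates 7, 8 and 9 lay above all vehicle libraries, and replicates 6 and 10 within their range. The means were 7.74 ± 2.41 FPKM with WY-14643 and 5.27 ± 1.13 FPKM with vehicle (SD, n = 5 each), a log2 difference of 0.46 (SE 0.10 in the matched fit), higher in 5 of 5 matched libraries. Lipa did not pass in the matched fit (limma, adjusted p = 0.135, 95% interval 0.23 to 0.68) nor without the block (adjusted p = 1, unadjusted p = 0.0440). With voom on recovered reads and the block, a fit that called 190 genes or 1.4% higher and 49 or 0.36% lower, Lipa rose (adjusted p = 0.0112), as Scarb2 did (adjusted p = 3.94e-06), and no other member passed there (limma, lowest adjusted p = 0.161). An exact two-sided permutation test of the 10 Lipa levels gave p = 0.0794.

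The other 6 lipid handling genes gave differences from -0.13 to 0.07 on the log2 scale. Psap, the precursor of the saposins that present sphingolipids to their hydrolases, was the most abundant of the 36 genes, at 169 to 216 FPKM with WY-14643 and 153 to 215 FPKM with vehicle. Asah1, the acid ceramidase, was at 80.4 to 99.3 FPKM with WY-14643 and 79.8 to 92.1 FPKM with vehicle. Npc2, which hands cholesterol to the membrane protein NPC1, was at 19.6 to 25.9 FPKM with WY-14643 and 18.3 to 27.9 FPKM with vehicle. Ppt1, a thioesterase that removes palmitate from proteins, stayed within 8.50 to 11.3 FPKM with WY-14643 and 8.96 to 10.4 FPKM with vehicle. Npc1 itself was at 7.35, 8.20, 6.29, 10.5 and 4.32 FPKM in WY-14643 replicates 6 to 10, against 6.66, 11.5, 6.64, 11.7 and 4.001 FPKM in vehicle replicates 1 to 5. Smpd1, the acid sphingomyelinase, was at 6.32, 5.02, 5.30, 7.31 and 5.79 FPKM in WY-14643 replicates 6 to 10, against 5.81, 6.64, 5.88, 8.46 and 6.21 FPKM in vehicle replicates 1 to 5, so that it was below its matched vehicle library in 4 of 5. Neither passed (limma matched fit, log2 fold change -0.09 and adjusted p = 0.776 for Npc1, -0.13 and 0.555 for Smpd1), and the groups overlapped in both.

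The 10 proteases did not pass in either direction, with log2 fold changes from -0.14 to 0.15. Ctsd, the aspartic protease cathepsin D and the most abundant of them, was at 94.4, 94.7, 75.7, 83.4 and 81.1 FPKM in WY-14643 replicates 6 to 10, against 93.0, 84.4, 67.2, 68.1 and 74.8 FPKM in vehicle replicates 1 to 5. It stood above its matched vehicle library in 5 of 5 cases by 0.02 to 0.29 on the log2 scale, yet the groups overlapped (matched fit, log2 fold change 0.15 ± 0.05 SE, adjusted p = 0.317). Ctsz, the carboxypeptidase cathepsin Z, was at 50.7, 57.2, 55.0, 77.1 and 55.7 FPKM in WY-14643 replicates 6 to 10, against 52.9, 65.4, 62.4, 85.6 and 60.6 FPKM in vehicle replicates 1 to 5. It was the 1 member below its matched vehicle library in 5 of 5 cases (matched fit, log2 fold change -0.14 ± 0.04 SE, adjusted p = 0.254). In all, 4 of the 36 members were higher in 5 of 5 matched libraries, where 5.63% of all genes tested were, and 1 was lower, where 6.09% of all genes were.

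The spread of the proteases over the libraries went with the matched order: a median of 95.4% of their sum of squares lay between matched orders and 0.303% between the groups. Ctsh, cathepsin H, was at 40.8 to 46.4 FPKM in WY-14643 replicates 6 to 9 and at 76.2 FPKM in replicate 10, and at 40.0 to 49.6 FPKM in vehicle replicates 1 to 4 and 80.9 FPKM in replicate 5. The high Ctsh libraries of the groups were thus matched ones. Ctsc, cathepsin C, which activates serine proteases of granules, was lowest in the same 2 libraries, at 6.74 FPKM in WY-14643 replicate 10 and 5.96 FPKM in vehicle replicate 5, against 11.6 to 19.3 and 11.3 to 21.3 FPKM in the other libraries of those groups. Ctsl, cathepsin L, was highest in WY-14643 replicate 6 and vehicle replicate 1, at 48.7 and 47.0 FPKM, and lowest in replicates 10 and 5, at 22.5 and 24.8 FPKM. Ctsb, cathepsin B, was at 39.2 to 53.6 FPKM with WY-14643 and 37.4 to 61.6 FPKM with vehicle, and had the log2 fold change nearest to 0 of the 36 (matched adjusted p = 0.9995). Ctsa, a carboxypeptidase that also protects other lysosomal enzymes, Tpp1, a tripeptidyl peptidase, and Lgmn, an asparaginyl endopeptidase, lay between 6.56 and 16.2 FPKM in all 10 libraries.

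Ctss, cathepsin S, is best known from antigen-presenting cells and varied most relative to its mean. It was at 1.30, 6.85, 2.25, 2.23 and 0.986 FPKM in WY-14643 replicates 6 to 10, against 0.645, 7.63, 3.60, 2.15 and 1.41 FPKM in vehicle replicates 1 to 5. The highest library of either group was the matched one, WY-14643 replicate 7 and vehicle replicate 2. Of 11 macrophage markers, Lyz2, Adgre1, Tyrobp and C1qa were at 0 FPKM in all 10 libraries and Ptprc was at most 0.0123 FPKM with WY-14643 and 0.0223 FPKM with vehicle. Fcgr1, Itgam and Laptm5 were at most 0.110 FPKM with WY-14643 and 0.155 FPKM with vehicle, and Csf1r at most 1.31 FPKM with WY-14643 and 0.872 FPKM with vehicle. Cd14 and Cd68 were the 2 above the filter and made up most of the summed level of the list, which was 22.8 to 28.4 FPKM with WY-14643 and 21.5 to 27.9 FPKM with vehicle. The part of such cells in the level of Ctss was not tested.

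**Figure D3:**
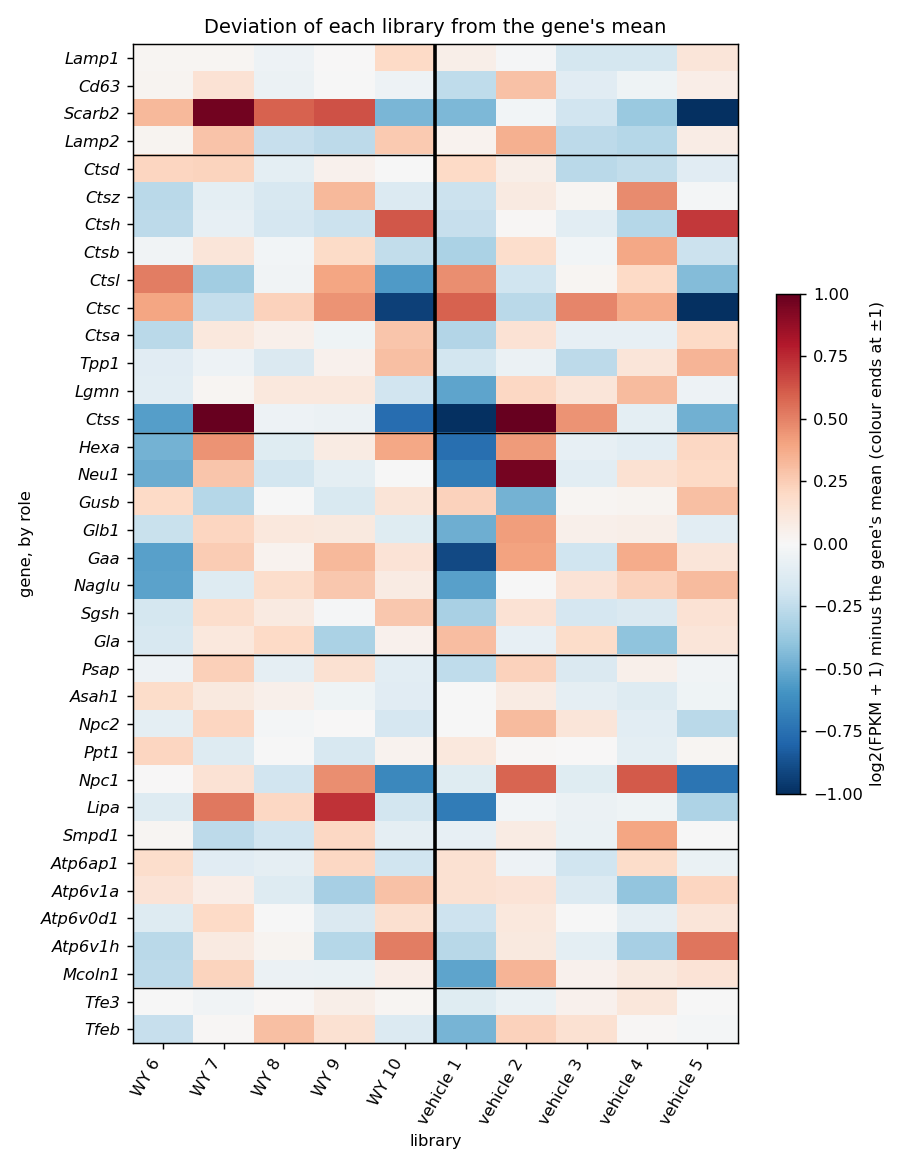
Deviation of log2(FPKM + 1) from the mean of each lysosomal gene, for WY-14643 replicates 6 to 10 (left) and vehicle replicates 1 to 5 (right), with colours ending at ±1. Most rows repeat the same colours in matched libraries of both groups, as Ctsh and Ctsc do in WY-14643 replicate 10 and vehicle replicate 5, while Scarb2 is red in 4 of the 5 WY-14643 libraries and in no vehicle library.

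Of the 8 glycosidases and sulfatases, 4 had higher and 4 lower means, and none passed in either fit. Neu1, the lysosomal sialidase, had the most negative log2 fold change of the 36 genes, -0.20 (matched fit, SE 0.12, 95% interval -0.48 to 0.08, adjusted p = 0.599). Its levels were 19.4, 33.7, 24.3, 25.8 and 27.6 FPKM in WY-14643 replicates 6 to 10, against 16.7, 54.7, 25.6, 30.9 and 31.9 FPKM in vehicle replicates 1 to 5. Vehicle replicate 2 stood above all other libraries, and without it the log2 fold change of Neu1 was 0.01. Sgsh, a sulfamidase of heparan sulfate breakdown, was at 3.17, 4.32, 4.01, 3.65 and 4.66 FPKM in WY-14643 replicates 6 to 10, against 2.75, 4.19, 3.18, 3.26 and 4.19 FPKM in vehicle replicates 1 to 5. It was higher in 5 of 5 matched libraries, with a fold change of 0.14 on the log2 scale (SE 0.05 and adjusted p = 0.419 in the matched fit).

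The groups of the other enzymes of this role overlapped as well. Hexa, the α subunit of β-hexosaminidase, was at 22.1 to 42.8 FPKM with WY-14643 and 18.03 to 42.1 FPKM with vehicle, lowest in WY-14643 replicate 6 and vehicle replicate 1. Gaa, the acid α-glucosidase that degrades glycogen, was also lowest there, at 7.57 and 5.67 FPKM, against 11.8 to 14.6 and 9.86 to 15.5 FPKM in the other WY-14643 and vehicle libraries. The same libraries were the lowest for Naglu, an enzyme of heparan sulfate breakdown, at 7.70 and 7.67 FPKM. Glb1, the lysosomal β-galactosidase, averaged 16.3 ± 2.12 FPKM with WY-14643 and 16.2 ± 3.83 FPKM with vehicle, and Gusb, β-glucuronidase, 24.0 ± 3.41 FPKM with WY-14643 and 25.0 ± 4.99 FPKM with vehicle (SD, n = 5 each). Gla, α-galactosidase A, was at 2.20 to 3.58 FPKM with WY-14643 and 2.02 to 3.95 FPKM with vehicle.

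The proton pump and the calcium channel differed little between groups. The 5 genes had log2 fold changes from -0.04 to 0.03. In the matched fit 0 of the 5 passed (limma), where 0.287% of all genes tested were called higher and 0.0294% lower. There 0 of the 5 had an unadjusted p under 0.05, where 1438 of all 13607 genes had. With voom and the block 0 of the 5 passed, where 1.4% of all genes were called higher and 0.36% lower. Atp6v1a, the catalytic subunit of the pump, averaged 28.3 ± 4.82 FPKM with WY-14643 and 28.1 ± 4.87 FPKM with vehicle, and Atp6v0d1, a subunit of the membrane sector, 26.9 ± 3.09 FPKM with WY-14643 and 26.3 ± 2.56 FPKM with vehicle (SD, n = 5 each). Atp6v1h, a regulatory subunit, was highest in WY-14643 replicate 10 and vehicle replicate 5, at 10.9 and 11.1 FPKM, and at most 7.87 and 7.93 FPKM in the other libraries of those groups. Atp6ap1, an accessory subunit, was at 29.0 to 38.7 FPKM with WY-14643 and 28.9 to 38.0 FPKM with vehicle. Mcoln1, the calcium channel TRPML1 of the lysosomal membrane, was at 4.08 to 6.14 FPKM with WY-14643 and 3.24 to 6.72 FPKM with vehicle.

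The levels of the factors that regulate lysosomal genes overlapped between groups. Tfeb was the least abundant member, at 1.61, 2.09, 2.79, 2.42 and 1.79 FPKM in WY-14643 replicates 6 to 10, against 1.23, 2.59, 2.41, 2.09 and 2.03 FPKM in vehicle replicates 1 to 5. Tfe3 was at 4.73, 4.61, 4.798, 4.99 and 4.84 FPKM in WY-14643 replicates 6 to 10, against 4.29, 4.495, 4.95, 5.22 and 4.74 FPKM in vehicle replicates 1 to 5. Both ranges overlapped, and neither gene passed (limma matched fit, log2 fold change 0.04 ± 0.09 and adjusted p = 0.911 for Tfeb, 0.02 ± 0.05 and 0.937 for Tfe3, matched SE). Their activity is set largely by phosphorylation and location in the cell, which RNA levels do not show.

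**Figure D4:**
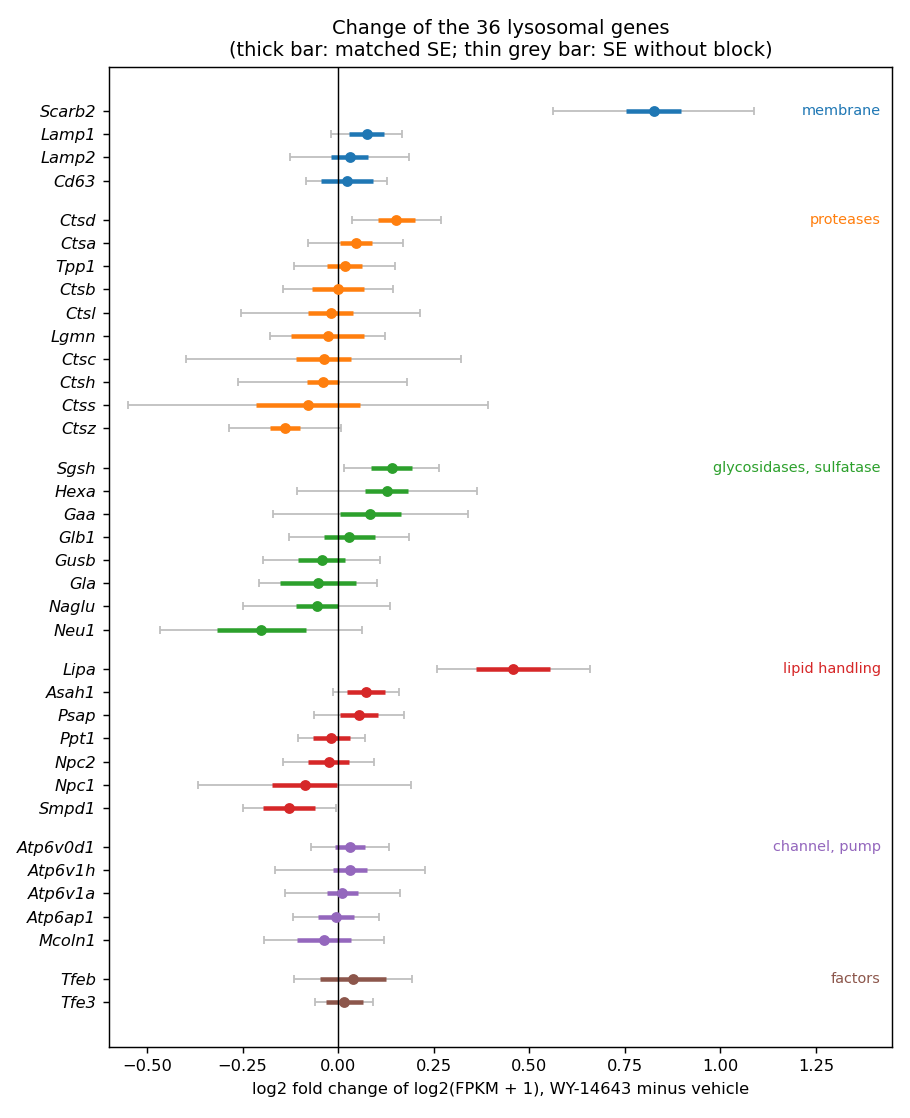
Log2 fold change (WY-14643 minus vehicle, on log2(FPKM + 1)) of the 36 lysosomal genes by role, with the matched SE as a thick bar and the SE without a block as a thin grey bar. Scarb2 at 0.82 and Lipa at 0.46 lie to the right, and the other 34 genes lie between -0.20 and 0.15.

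Counted over the list, 0 of 36 genes passed without the block and 1, Scarb2, rose in the matched fit. In the matched fit (limma) 5 of the 36 had an unadjusted p under 0.05, where 1438 of all 13607 genes had. The median log2 fold change of the 36 was 0.01, beside -0.01 over all 13607 genes tested. A higher mean was found in 20 members and a lower mean in 16, where 6409 and 7198 of all 13607 genes had these. Of the 36 members 28 differed by less than 0.1 on the log2 scale, where 67.6% of all genes tested did. The groups overlapped in all 36 members, where 0.353% of all genes had groups that did not overlap. For the 34 members other than Scarb2 and Lipa, the lowest bound of the matched 95% intervals was -0.48 (Neu1) and the highest 0.27 (Gaa). Without the block their intervals were wider, and the widest was -1.12 to 0.96 (Ctss).

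The spread of the 36 genes over the 10 libraries went mostly with the matched order. A median of 89.4% of a member's sum of squares lay between matched orders, 0.888% between WY-14643 and vehicle and 6.96% in the rest, beside medians of 83.6%, 2.27% and 10.8% over all genes tested. In Scarb2 48.4% lay between orders and 49.6% between the groups, the highest share between groups among the 36 genes. Lipa came next with 35.3% between the groups, and Ctsd had 19.6%. In Atp6v1h 0.25% lay between the groups and 99.0% between orders, and in Ctsh 0.34% and 98.9%.

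**Figure D5:**
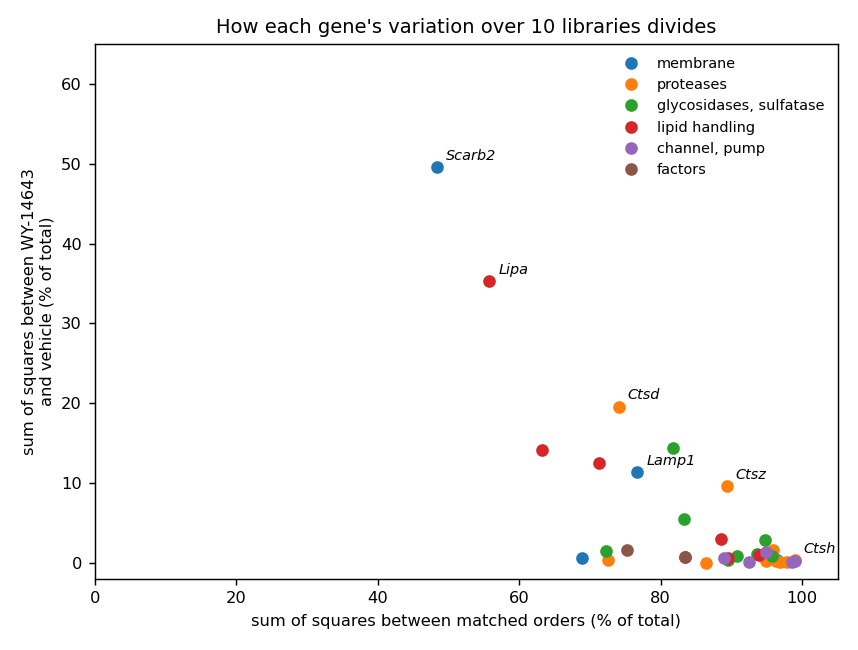
Share of each lysosomal gene's sum of squares over 10 libraries that lies between matched orders (horizontal, %) and between WY-14643 and vehicle (vertical, %), coloured by role. Scarb2 stands highest at 49.6% and Lipa follows at 35.3%, while most genes lie at the lower right.

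Scarb2 was lowest in the libraries in which markers of mature colonocytes were lowest. The summed level of 8 colonocyte markers was 599, 1071, 672, 1964 and 166 FPKM in WY-14643 replicates 6 to 10, against 313, 1142, 472, 863 and 141 FPKM in vehicle replicates 1 to 5. The sum of the 8 epithelial genes was lowest in the same libraries, at 3795 FPKM in WY-14643 replicate 10 and 4065 FPKM in vehicle replicate 5. Goblet markers summed lowest in WY-14643 replicate 6 and vehicle replicate 1, stem and progenitor markers in WY-14643 replicate 9 and vehicle replicate 4. Krt20, a keratin of differentiated epithelium, was at 6.92 FPKM in WY-14643 replicate 10 and 6.12 FPKM in vehicle replicate 5, against 54.9 to 169 and 61.1 to 129 FPKM in the other libraries of those groups. Car4 was at 0 FPKM in all 10 libraries. Of the 6 colonocyte markers that were tested, 5 had a higher mean with WY-14643 (median log2 fold change 0.41), where 6409 of all 13607 genes had. In the matched fit 0 of the 6 passed (limma). There 3 of the 6 had an unadjusted p under 0.05, as 1438 of all 13607 genes had. With voom and the block 1 of them, Ms4a12, rose, where 1.4% of all genes did. Of the 7 goblet markers tested, 6 had a lower mean (median log2 fold change -0.27), where 7198 of all 13607 genes had. Of these 7, 0 passed in the matched fit and 2 had an unadjusted p under 0.05 there. Of the 6 stem and progenitor markers tested, 3 had a higher and 3 a lower mean. With voom and the block 1 of them fell, where 0.36% of all genes did. The part of colonocyte or other epithelial content in the level of Scarb2 was not tested. The colonocyte marker sum and Scarb2 were both higher with WY-14643 in 4 of the 5 matched libraries. In WY-14643 replicate 7 the colonocyte marker sum was lower than in vehicle replicate 2, while Scarb2 was higher.

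Beyond the 36 genes, 158 tested genes of other lysosomal proteins, their sorting, autophagy and nutrient sensing were examined. In the matched fit 0 of the 158 passed in either direction (limma, where 0.287% of all genes were called higher and 0.0294% lower), 11 of the 158 had an unadjusted p under 0.05 there, where 1438 of all 13607 genes had, and their median log2 fold change was 0.02. Among 33 other hydrolases, with a median of 0.04, Hyal1, a hyaluronidase, had the smallest p without the block, at 3.69 ± 0.70 FPKM with WY-14643 and 3.01 ± 0.87 FPKM with vehicle, followed by the carboxypeptidase gene Scpep1, at 50.6 ± 8.78 FPKM with WY-14643 and 44.6 ± 10.8 FPKM with vehicle. Among 29 other membrane proteins, with a median of 0.01, Slc17a5, the sialic acid exporter, was at 7.38 ± 0.63 FPKM with WY-14643 and 6.63 ± 0.63 FPKM with vehicle. The cystine exporter gene Ctns was at 8.55 ± 1.84 FPKM with WY-14643 and 10.5 ± 2.96 FPKM with vehicle (SD, n = 5 each). Litaf, a membrane protein of late endosomes, was at 53.0, 29.4, 41.9, 59.9 and 24.4 FPKM in WY-14643 replicates 6 to 10, against 57.9, 37.7, 49.6, 71.9 and 26.8 FPKM in vehicle replicates 1 to 5. It lay below its matched vehicle library in 5 of 5 cases (limma matched fit, log2 fold change -0.22, adjusted p = 0.144), and with voom and the block it was the 1 gene of the 158 that fell (adjusted p = 0.0343), where 0.36% of all genes did.

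The 16 other subunits and partners of the proton pump had a median of 0.01, with Atp6v0a2 and Atp6v0a1, subunits of its membrane sector, at log2 fold changes of 0.16 and 0.15. The 25 genes of lysosomal sorting had a median of -0.02. Among them Nagpa and Gnptab, which build the mannose 6-phosphate tag, had log2 fold changes of 0.10 and -0.14 (matched adjusted p = 0.620 and 0.605). The 33 autophagy genes had a median of 0.04, and Sqstm1, the autophagy receptor p62, was at 96.7 ± 24.7 FPKM with WY-14643 and 84.1 ± 19.0 FPKM with vehicle (SD, n = 5 each, matched adjusted p = 0.561). Tax1bp1, another autophagy receptor, was at 27.6 ± 2.24 FPKM with WY-14643 and 25.7 ± 2.57 FPKM with vehicle. The 19 genes of nutrient sensing and of the TFEB family had a median of 0.002, with Lamtor4, a part of the complex that recruits mTORC1 to lysosomes, at a log2 fold change of 0.16 and Sesn1, a stress-induced inhibitor of mTORC1, at 0.21.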

How the data were processed

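RNA of 10 mouse colon organoid libraries was analysed from 1 table in which the authors deposited FPKM values (fragments per kilobase of gene length, scaled per library) for 56748 genes. The submitters' processing notes name HISAT2 (2.0.5) and featureCounts (1.5.0-p3) with mm39 as build; which annotation and strand setting went with them is not given in the sources used here. The labels' protocols describe capture of polyadenylated RNA. The spans of 7 members (Lamp1, Ctsb, Ctsz, Glb1, Sgsh, Npc1 and Ppt1) overlap another tested gene. In all but Glb1 that gene lies on the opposite strand, and its reads cannot be told apart from theirs without strand. The genes that overlap Glb1 lie on its own strand, so strand would not separate their reads.

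FPKM multiplied by gene length, divided by its smallest step, was whole in 100% of values above 0 (tolerance 0.01), which gave the reads used for depth and for voom. Genes with a mean of at least 0.5 FPKM were tested by limma 3.58.1 in R 4.3.3 on log2(FPKM + 1), with trend and robust priors and Benjamini-Hochberg adjustment. Samples were grouped by the labelled treatment. No 2 libraries held the same values (chi-square per degree of freedom at least 9.37). Both fits were also run on simulated reads with known fold changes, in which the matched order was built in. That run cannot show whether the match itself is right. The matched order comes from the data and the library numbers, not from a label. The members, gene lists and alternatives were chosen with earlier results of these data known. Given in full are Scarb2, members that passed, the 4 largest and 4 smallest fold changes, Lamp1, Lamp2, Ctsd, Tfeb and Tfe3; of each other list, up to 2 genes with the smallest p and those that passed; 1 gene of these lists is not reported here. Ctsh, Ctss, Litaf, Krt20, Cpt1a and the printed promoters were picked after their values were seen. Figures were drawn with matplotlib 3.10.9.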

Additional observations from a re-analysis of the deposited data

Results flagged for a closer look

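Each member was examined in each group of 5 libraries for a highest or lowest library that stands far from the rest (gap over range above 0.710). Of 72 such groups 5 were flagged, where chance flags about 1 in 20. Ctsh was at 76.2 FPKM in WY-14643 replicate 10, where the others lay at 40.8 to 46.4 FPKM, and at 80.9 FPKM in vehicle replicate 5, where the others lay at 40.0 to 49.6 FPKM. Ctss was at 6.85 FPKM in WY-14643 replicate 7, with the others at 0.986 to 2.25 FPKM. Ctsz was at 77.1 FPKM in WY-14643 replicate 9, with the others at 50.7 to 57.2 FPKM. Lamp1 was at 136.2 FPKM in WY-14643 replicate 10, with the others at 114 to 120.0 FPKM. In each case the matched library of the other group was the highest of its own group.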

How the results depend on the processing

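Without a block and with all libraries equally weighted, 0 genes were called. With all 10 libraries, the alternatives that called genes were library quality weights (18 higher, 3 lower), the matched fit, which has the library order as a replicate block (39 and 4), that fit with pseudocount 0.1 (37 and 3), with no filter on low values (2 and 0) and with voom on recovered reads (190 and 49). Leaving out libraries in either fit gave 0 to 30 genes higher and 0 to 6 lower. Among the 36 members, the matched fit called 1 higher, as it did with pseudocount 0.1, and 2 with voom; leaving out libraries gave 0 to 1. With voom and the block 1 gene of the other lysosomal, autophagy and sensing lists was lower. Scarb2 passed in the matched fit (log2 fold change 0.82), with pseudocount 0.1 (0.86) and with voom (0.88); leaving out libraries gave 0.67 to 1.04, without change of direction, and it passed there in the matched fit without replicates 1 and 6, 4 and 9 or 5 and 10. Signs were followed over these settings only for Scarb2, Lipa, Ctsd, Sgsh, Npc1, Smpd1, Ctsz, Neu1, Lamp1, Lamp2, Tfeb and Tfe3. Of these, Tfe3 changed sign with library quality weights (-0.014). When libraries were left out, the sign changed in Npc1 (-0.282 to 0.062), Neu1 (-0.401 to 0.013), Lamp2 (-0.038 to 0.122), Tfeb (-0.073 to 0.102) and Tfe3 (-0.013 to 0.045), none of which was called in these settings. The cause was not tested. The difference between Scarb2 and the other members and the median of the members moved by less than the spread between libraries in all settings. Ctss rests on as few as 15 reads in a library, so its level is the least precise of the 36.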
